A study of Homo sapiens with 6 samples.

Results

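The interferon regulatory factors (IRFs) were examined in HCC1806/HM3 cells, with and without a stable MSLN knockdown. The 6 members IRF1, IRF2, IRF3, IRF5, IRF7 and IRF9 were taken by gene symbol from the 17860 genes of the expression table. HCC1806 is a human breast cancer cell line, labelled here as breast squamous cell carcinoma, and HM3 is a subline selected in mice for spread to the liver. The control group (shNC, 3 samples) carried a lentiviral control shRNA, and the knockdown group (shMSLN, 3 samples) carried an shRNA against MSLN, the gene of the surface protein mesothelin. Both groups were stable lines that had been kept under G418 after infection. The labels give 1 shMSLN line, the shRNA that it carried was not named, and no second line stood beside it. The replicates were not said to be separate cultures, so the p-values below measure only the spread between these samples. In cultured lines sequenced in bulk, fewer cells with a transcript and less RNA per cell cannot be told apart.

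IRFs are transcription factors that share a DNA-binding domain, which reads a repeated GAAA-type element in the promoters of interferons and interferon-stimulated genes. IRF3, IRF5 and IRF7 lie dormant until kinases downstream of nucleic acid sensors phosphorylate them, and they then switch on interferon genes. IRF9 is the DNA-binding part of the ISGF3 complex, which carries the type I interferon signal to the nucleus. IRF1 is itself induced by interferon-gamma and NF-kB, activates antigen presentation and growth-restraining genes, and is opposed at the same elements by IRF2. IRF1 is also among the factors that the study listed as candidates for the MSLN gene.

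The promoters of IRF1 and IRF9 are shown because these members passed the test below in opposite directions. Both sequences are RefSeq promoter windows on GRCh38.p14, running from 250 bases before to 50 bases after the transcription start and written 5′ to 3′ on the strand of the gene. Capitals mark the matches to the searched elements.
IRF1 (chr5:132490724-132491023, reverse strand): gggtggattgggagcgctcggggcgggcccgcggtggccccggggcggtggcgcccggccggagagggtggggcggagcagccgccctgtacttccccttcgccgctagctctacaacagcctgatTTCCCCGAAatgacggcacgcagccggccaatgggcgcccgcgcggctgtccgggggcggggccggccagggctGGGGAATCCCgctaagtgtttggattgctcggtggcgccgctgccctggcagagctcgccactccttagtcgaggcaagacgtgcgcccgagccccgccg
IRF9 (chr14:24161015-24161314, forward strand): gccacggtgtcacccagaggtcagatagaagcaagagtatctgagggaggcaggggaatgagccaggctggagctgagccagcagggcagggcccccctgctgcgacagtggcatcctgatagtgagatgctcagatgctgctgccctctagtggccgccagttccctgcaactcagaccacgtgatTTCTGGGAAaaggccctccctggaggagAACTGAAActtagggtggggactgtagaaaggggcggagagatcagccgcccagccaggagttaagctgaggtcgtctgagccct
Both windows held a GAS element (letters TTCNNNGAA), a motif of STAT dimers, which began 124 bases before the IRF1 start and 63 bases before the IRF9 start. The IRF1 window also held an NF-kB consensus, GGGGAATCCC, that began 50 bases before the start. The IRF9 window held an IRF half-site (letters AANNGAAA) that began 35 bases before the start. Among 35116 promoter windows of the same length, searched on both strands, GAS was found in 7.66%, the NF-kB consensus in 11.3% and the IRF half-site in 22.8%. The longer ISRE core (GAAA, any 2 bases, GAAA), which contains the half-site and was found in 3.57% of all windows, matched neither promoter. The windows of 3 of the 6 members could be matched. The third was IRF5, in which 1 of 4 start sites had a half-site.

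The estimated counts of a sample summed to 17507837 at the lowest and 18512135 at the highest. CPM, the count scaled by edgeR to a TMM-adjusted library size, is used below to compare one gene between samples. MSLN was between 226 and 231 CPM in the shNC samples and between 35.4 and 37.1 CPM in the shMSLN samples, or 15.9% of control. The shMSLN columns stood apart in 2 ways. shMSLN replicate 1 lacked a value for 1103 genes and replicates 2 and 3 for 695 each, where the shNC columns lacked 0. shMSLN replicates 2 and 3 held whole numbers for 47.7% of values above 100 counts, against 3.36% to 7.02% in the other samples. Among the members, both held whole numbers for IRF2, IRF5, IRF7 and IRF9 but not for IRF1 and IRF3. The part of this difference in the results was not tested. All 6 members had a value in every sample and passed the filter on low counts. Because of the whole numbers, each is also given from shMSLN replicate 1 alone, although that sample lacked the most values. Squamous and basal epithelial markers were present (summed TPM 3502 to 3777 in shNC and 3113 to 3161 in shMSLN), with KRT14 low at 3.52 CPM in shNC. The 12 leukocyte markers, whose cells express much of this family, summed to 39.9 to 44.0 TPM in shNC and 40.5 to 42.7 TPM in shMSLN, most of it CD68. Of these, 8 had a value in every sample and 4 were below 1 TPM, and PTPRC (CD45), the defining leukocyte marker, was at 2.69 CPM in shNC and 2.95 CPM in shMSLN. Fibroblast and endothelial markers summed to 63.2 to 66.8 TPM in shNC and 120 to 124 TPM in shMSLN, mostly from lumican (LUM), and their part in the results was not tested.

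Of the 6 members, 3 passed the test: IRF1 and IRF5 fell and IRF9 rose. A gene passed where edgeR's quasi-likelihood test gave a Benjamini-Hochberg adjusted p below 0.05 over the 14552 genes tested. The background was high, since 5032 genes (34.6%) passed in this comparison, 16.6% higher and 18.0% lower in shMSLN. A count of 3 in 6 is therefore not in itself a result about the family, and the members are described one by one. CPM did not overlap between the groups for 4 members (IRF1, IRF3, IRF5 and IRF7), where 46.2% of all tested genes did not overlap.

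**Figure D1:**
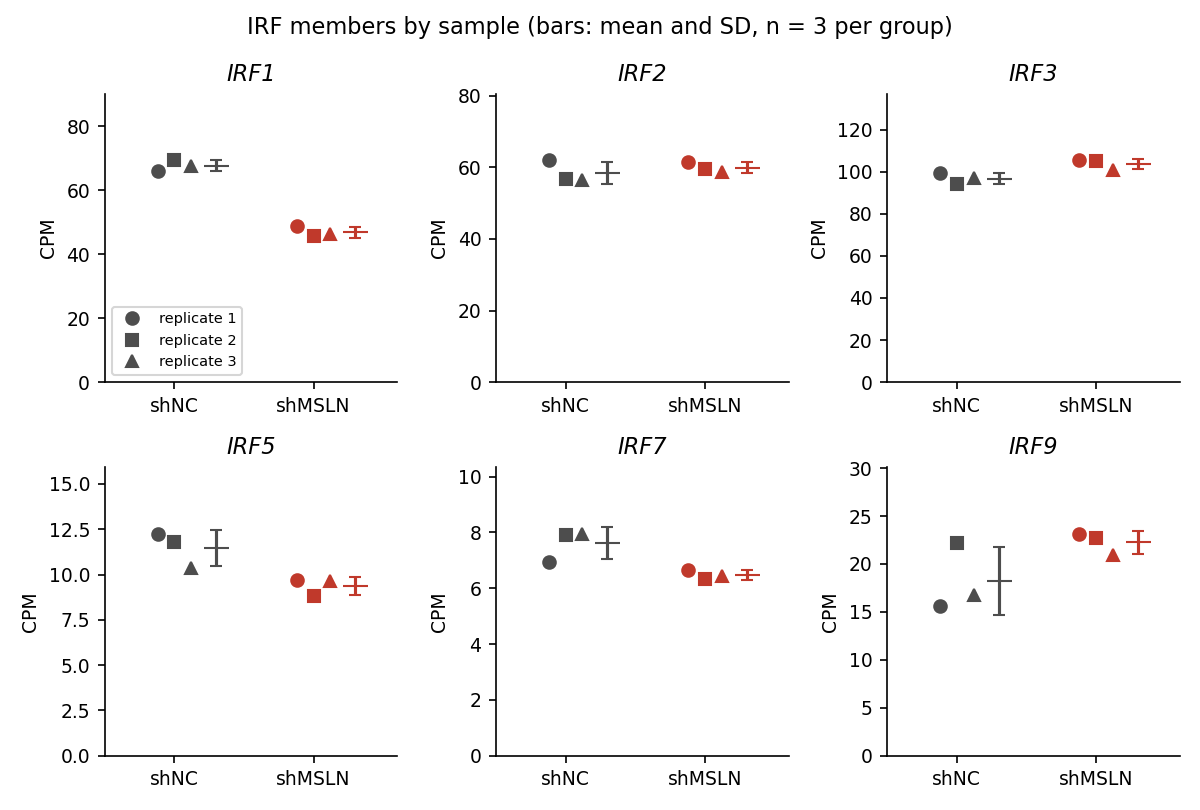
Level of each IRF member in CPM (vertical axis, from 0) in the 3 shNC and 3 shMSLN samples, with marker shape for the replicate number and bars for mean and SD. IRF1 fell from 67.7 to 46.9 CPM with no overlap, whereas 1 shNC sample of IRF9 lay among the shMSLN samples.

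IRF1 changed most clearly. IRF1 (NCBI Gene 3659) spans chr5:132481609-132490798 on the reverse strand (GRCh38, GENCODE release 29), where opposite-strand genes, described below, share part of its exons. It measured 66.2, 69.5 and 67.6 CPM in shNC replicates 1 to 3 and 48.9, 45.6 and 46.2 CPM in shMSLN replicates 1 to 3. All shMSLN samples were below all shNC samples, and the gap between the groups was many times the spread within either. The means were 67.7 ± 1.65 and 46.9 ± 1.77 CPM (SD, n = 3 each), so shMSLN cells held 69.3% as much as shNC cells. This was a log2 fold change of -0.53 (SE 0.048, 95% interval -0.63 to -0.43), with an adjusted p of 9.91e-07 in edgeR's quasi-likelihood test. The exact two-sided permutation test gave p = 0.1, which is the smallest that 3 against 3 samples allow. The size of the change exceeded that of 79.4% of all genes called, while 390 of the genes called lower fell at least as far. IRF1 was called in each of the 18 alternative settings, with log2 fold changes between -0.56 and -0.47, and from shMSLN replicate 1 alone it was -0.47 (adjusted p = 0.00224).

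IRF2, which occupies the same elements as IRF1 and mostly represses from them, did not pass the test. It measured 62.0, 56.7 and 56.4 CPM in shNC and 61.6, 59.6 and 58.6 CPM in shMSLN, and the groups overlapped. Its log2 fold change was 0.038 (95% interval -0.070 to 0.15, edgeR adjusted p = 0.594), an interval that lay wholly above that of IRF1. From shMSLN replicate 1 alone it was 0.080 (adjusted p = 0.595). The balance of the pair was then taken within each sample, where library scaling cancels. The log2 difference IRF1 minus IRF2 was 0.093, 0.29 and 0.26 in shNC and -0.33, -0.38 and -0.34 in shMSLN. IRF1 thus stood above IRF2 in 3 of 3 shNC samples and below it in 3 of 3 shMSLN samples. In CPM, the ratio of IRF1 to IRF2 went from 1.16 ± 0.0847 to 0.783 ± 0.0150 (SD, n = 3 each). The difference between the groups was -0.57 on the log2 scale, with an exact two-sided permutation p of 0.1, again the smallest possible.

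The corepressors that IRF2 recruits were divided. IRF2BP2 measured 231, 248 and 238 CPM in shNC and 190, 188 and 190 CPM in shMSLN, without overlap. Its log2 fold change was -0.34 (SE 0.038, edgeR adjusted p = 8.19e-06). IRF2BP1 averaged 27.9 ± 2.32 CPM in shNC and 31.6 ± 1.36 CPM in shMSLN, a log2 fold change of 0.18 that lay at the threshold (edgeR adjusted p = 0.0492) with overlapping groups. IRF2BPL did not pass (log2 fold change -0.086, edgeR adjusted p = 0.223).

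IRF3, the constitutive factor that sensors of viral nucleic acid activate first, was the most abundant member by TPM. It measured 99.2, 94.0 and 96.8 CPM in shNC and 105, 105 and 101 CPM in shMSLN. The groups did not overlap, but the log2 fold change of 0.10 (95% interval 0.013 to 0.19) missed the threshold, with an edgeR adjusted p of 0.0710. From shMSLN replicate 1 alone it was 0.13 (adjusted p = 0.282). IRF3 lies on chr19:49659569-49665875 and shares 734 exon bases, 19.3% of its own, with BCL2L12 on the opposite strand. The sources used here do not say whether counting used the strand, so reads in that stretch may belong to either gene. BCL2L12, added after its values were seen, was at 52.2 ± 5.17 CPM in shNC and 57.0 ± 5.76 CPM in shMSLN (log2 fold change 0.13, edgeR adjusted p = 0.218).

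IRF5 and IRF7, the inducible partners of IRF3 that are best known from immune cells, were both low. IRF5 measured 12.3, 11.8 and 10.4 CPM in shNC and 9.68, 8.81 and 9.66 CPM in shMSLN. The groups did not overlap, although shNC replicate 3 came close to the shMSLN samples. Its log2 fold change was -0.29 (SE 0.098, 95% interval -0.50 to -0.082, edgeR adjusted p = 0.0320), or 81.8% of control. The change rested on 157 to 224 estimated counts per sample, which were whole numbers in shMSLN replicates 2 and 3 only. The call was weak: it was kept in 1 of 6 fits that left out a sample (without shNC replicate 3, adjusted p = 0.0215) and was lost in the other 5 with adjusted p up to 0.130. From shMSLN replicate 1 alone the log2 fold change was -0.24 (adjusted p = 0.330).

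IRF7, the main driver of late interferon-alpha production, measured 6.95, 7.93 and 7.96 CPM in shNC and 6.67, 6.34 and 6.44 CPM in shMSLN. The groups did not overlap, with shNC replicate 1 just above the highest shMSLN sample. The log2 fold change was -0.23 (SE 0.11, 95% interval -0.47 to 0.0074), and it did not pass the test (edgeR adjusted p = 0.125). It rested on 113 to 143 estimated counts per sample, and from shMSLN replicate 1 alone it was -0.19 (adjusted p = 0.534).

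IRF9, the DNA-binding subunit of ISGF3, was the 1 member that passed as higher. It measured 15.6, 22.2 and 16.8 CPM in shNC and 23.2, 22.7 and 20.9 CPM in shMSLN. The groups overlapped, since shNC replicate 2 was above shMSLN replicate 3. shNC averaged 18.2 ± 3.53 CPM and shMSLN 22.3 ± 1.20 CPM (SD, n = 3 each). On the log2 scale this was a difference of 0.29 (SE 0.11, 95% interval 0.066 to 0.52) or 1.22-fold, with an edgeR adjusted p of 0.0443 and an exact permutation p of 0.2. The value turned on the shNC samples. Without shNC replicate 2 the log2 fold change was 0.46 (adjusted p = 0.000329), and without shNC replicate 1 it was 0.19 (adjusted p = 0.122). Leaving out any sample other than shNC replicate 2 ended the call, and shMSLN replicate 1 alone gave 0.35 (adjusted p = 0.174). In GENCODE, 48.4% of the exon bases of IRF9 are shared with a longer gene model on the same strand, AL136295.5, which was not analysed here. The estimated counts of IRF9 were whole numbers in shMSLN replicates 2 and 3 only. Whether the shared bases or this difference had a part in its change was not tested.

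**Figure D2:**
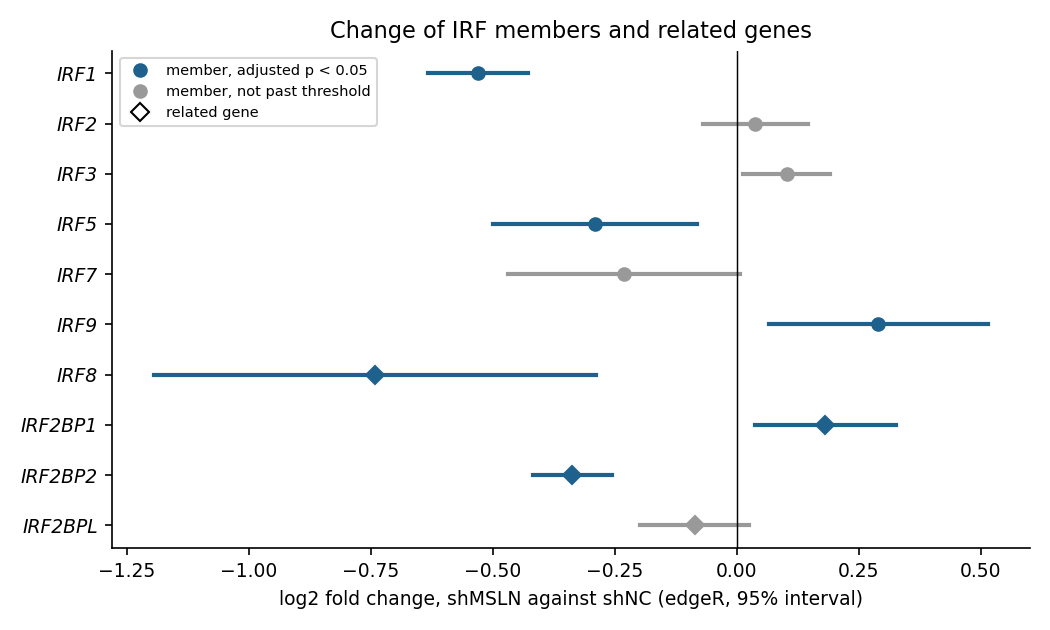
Log2 fold change of shMSLN against shNC (horizontal axis) with its 95% interval from edgeR for the 6 members (circles) and for IRF8 and the IRF2-binding corepressors (diamonds), blue where the adjusted p was below 0.05. IRF1 has the narrowest interval among the called members, and the intervals of IRF5 and IRF9 come near 0 on opposite sides.

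The levels of different members were compared in TPM, the deposited measure per transcript length. In shNC, the order was IRF3 (141 ± 2.36 TPM), IRF1 (61.8 ± 1.39), IRF2 (55.5 ± 2.30), IRF9 (24.9 ± 5.68), IRF7 (9.12 ± 0.185) and IRF5 (8.61 ± 0.740). IRF7 and IRF5 overlapped in both groups and cannot be ranked. In shMSLN, IRF2 (57.4 to 59.2 TPM) passed above IRF1 (42.8 to 43.6 TPM), while the other neighbours kept their order. IRF3 was above 93.7% of all listed genes in shNC, IRF1 above 83.4% and IRF5 above 39.9%. The summed TPM of the 6 members was 301 ± 8.27 in shNC and 303 ± 5.53 in shMSLN (SD, n = 3 each). Within that sum, the share of IRF1 went from 20.5 ± 0.216% to 14.3 ± 0.374%, that of IRF3 from 46.9 ± 1.22% to 51.4 ± 0.653%, and that of IRF9 from 8.23 ± 1.70% to 10.2 ± 0.264%.

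**Figure D3:**
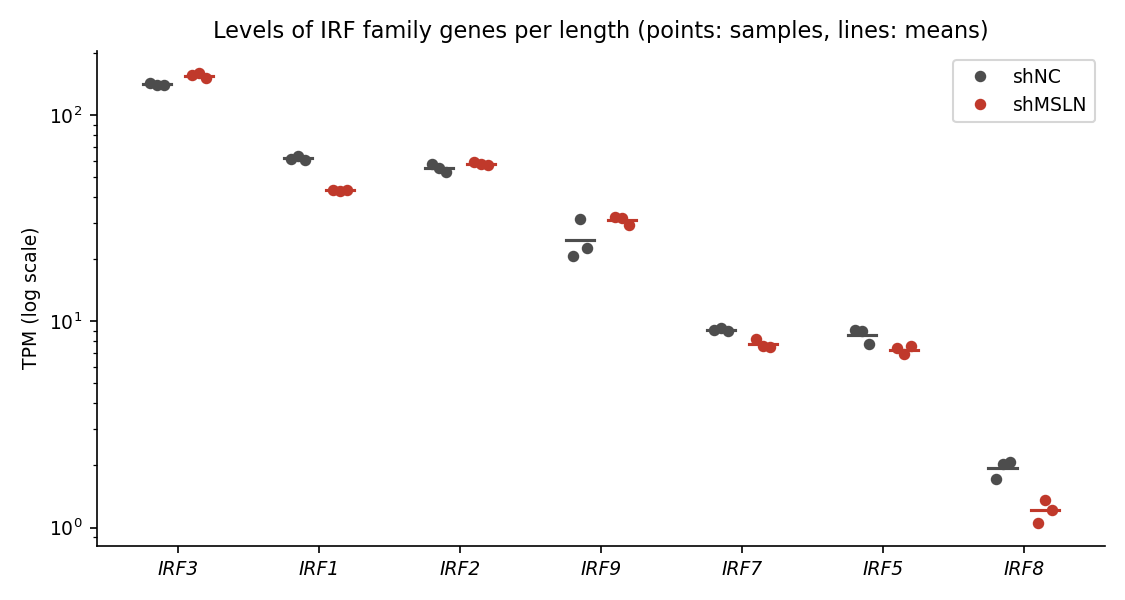
TPM (log axis) of the 6 members and IRF8, with 1 point per sample and a line at each group mean. IRF1 is above IRF2 in shNC and below it in shMSLN, and IRF3 is the highest of the genes drawn.

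IRF8 and IRF4 are not members and were named after their values were seen. IRF8, a factor of myeloid and B cells, measured 2.13, 2.33 and 2.50 CPM in shNC and 1.18, 1.57 and 1.41 CPM in shMSLN. It fell by 0.74 on the log2 scale (SE 0.21, edgeR adjusted p = 0.0140), on 22 to 45 counts per sample. IRF4, a lymphocyte factor, had at most 5.11 estimated counts in any sample and was not tested.

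Genes around the IRFs were then read from lists, which were compared with all genes tested (34.6% called, 16.6% higher and 18.0% lower, median log2 fold change 0.0019). Among the sensors, adaptors and kinases upstream of IRF3 and IRF7, 27 of 30 could be tested and 15 passed (55.6%), with 12 lower (44.4%) and 3 higher (median log2 fold change -0.091). TNFAIP3 (A20), a deubiquitinase that dampens this signalling, fell from 33.5 ± 1.77 to 17.4 ± 0.864 CPM (log2 fold change -0.94). Because the list also holds such a damping gene, its count of lower genes is not a measure of signalling. IKBKE, the IKK-epsilon kinase that phosphorylates IRF3 and IRF7, fell from 45.6 ± 2.06 to 29.8 ± 1.85 CPM (log2 fold change -0.61). The DNA sensor IFI16 fell from 265 to 202 CPM (log2 fold change -0.39), and the RNA sensor IFIH1 (MDA5) from 34.1 to 27.5 CPM (log2 fold change -0.31). In the other direction, IRAK1, a kinase of Toll-like receptor signalling, rose from 44.6 ± 4.05 to 68.2 ± 2.41 CPM (log2 fold change 0.61). The endosomal RNA receptor TLR3 rose from 65.3 to 72.1 CPM (log2 fold change 0.14). The third gene called higher, the Z-nucleic acid sensor ZBP1, was at 0.460 and 1.03 CPM and below the level set for naming. The edgeR adjusted p of the named genes ranged from 7.74e-08 for TNFAIP3 to 0.0318 for TLR3. DESeq2, another test of counts, called 10 genes of this list and 3863 of all 14552 genes. From TPM with limma, 8 of this list were called, and 4322 of all genes.

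Few of the interferons themselves could be read. Of 22 interferon genes, 10 were listed, 3 had a value in every sample, and only IFNE, an epithelial interferon, could be tested. IFNE was at 1.25 CPM in shNC and 0.754 CPM in shMSLN and did not pass (edgeR adjusted p = 0.0749).

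Interferon receptors and the partners of IRF9 were all expressed, and 7 of 12 passed (58.3%), 5 lower and 2 higher (median log2 fold change -0.11). Both chains of the interferon-gamma receptor fell, IFNGR1 from 69.7 ± 3.64 to 51.1 ± 3.60 CPM and IFNGR2 from 77.1 ± 1.05 to 57.4 ± 0.247 CPM. Their log2 fold changes were -0.45 and -0.43 (edgeR adjusted p = 3.12e-05 and 2.89e-06). The interferon-alpha receptor chain IFNAR2 (log2 fold change -0.21), the receptor kinase TYK2 (-0.17) and IL10RB (-0.15), a chain of the interferon-lambda receptor that was the fifth gene called lower, fell less. JAK2, the kinase bound to IFNGR2, rose from 8.81 to 13.4 CPM (log2 fold change 0.60, edgeR adjusted p = 0.000422). STAT2, a partner of IRF9 in ISGF3, rose from 103 ± 2.33 to 117 ± 4.64 CPM (log2 fold change 0.19, edgeR adjusted p = 0.00330). DESeq2, which called 3863 genes in all, called 6 of the 12.

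Among 40 textbook target genes of IRF1, 35 could be tested and 10 passed (28.6%), 5 in each direction, with a median log2 fold change of -0.017, against 0.0019 over all genes. The genes called lower were CDKN1A, the p21 cell cycle inhibitor (28.3 ± 1.15 to 18.9 ± 1.92 CPM, log2 fold change -0.58), the tryptophan-degrading enzyme IDO1 (-0.55), the peptide-loading protein TAPBP (-0.28), APOL6 (-0.22) and, as the fifth, the peptide transporter TAP1 (-0.17). The genes called higher were the guanylate-binding protein GBP5 (log2 fold change 0.42), the apoptosis initiator CASP8 (0.30), the death ligand TNFSF10 (0.27), the virus tether BST2 (0.25) and the class I light chain B2M (0.099). GBP5 was low, at 5.60 CPM in shNC and 7.48 CPM in shMSLN, and its groups overlapped. The edgeR adjusted p ran from 3.57e-05 for CDKN1A to 0.0389 for GBP5. DESeq2, which called 3863 genes in all, called 9 genes of the list.

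The 52 target genes of ISGF3 were all tested, and 22 passed (42.3%), 11 in each direction (median log2 fold change 0.024). The antiviral 2-5A synthetases OAS1 (109 ± 7.14 to 72.7 ± 1.02 CPM, log2 fold change -0.58) and OAS3 (-0.44) fell, as did SAMD9 (-0.49) and PARP9 (-0.28). IFI27 (0.682 to 1.80 CPM, log2 fold change 1.39), IFI44L (0.67), the RNA-binding IFIT1 (35.6 ± 1.37 to 49.5 ± 0.380 CPM, 0.48) and LGALS3BP (0.35) rose. The most abundant gene of the list by TPM in shNC, IFITM3, which restricts virus entry and resembles its neighbours IFITM1 and IFITM2 closely enough that reads may be shared, rose by 0.16. The edgeR adjusted p of these genes was between 5.42e-07 and 0.00674. DESeq2, which called 3863 genes in all, called 20 genes of the list.

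Of 24 genes that restrain IRF activity by dephosphorylation, ubiquitin editing or repression, 4 passed (16.7%), and all 4 were lower. CYLD, a deubiquitinase, fell from 29.3 to 21.6 CPM (log2 fold change -0.44, edgeR adjusted p = 0.000779). MDM2, the phosphatase PTPN2 and the translation repressor EIF4EBP2 fell by 0.19, 0.18 and 0.17 on the log2 scale. The most abundant of the list, the corepressor TRIM28, was at 1537 and 1509 CPM and did not pass (log2 fold change -0.026, edgeR adjusted p = 0.686). The count moved with single samples, from 7 without shNC replicate 1 to 2 without shMSLN replicate 1. The calls over all genes in these fits were 5399 and 4209.

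Neighbours of IRF1 on chromosome 5 were read beside it, and 2 of the 6 that could be tested passed, both lower. Over all genes tested, 34.6% passed, and 18.0% passed as lower. A count of 2 in 6 is therefore not in itself a result about the locus. KIF3A, a kinesin motor subunit, fell from 37.0 ± 2.55 to 27.7 ± 1.26 CPM (log2 fold change -0.42, edgeR adjusted p = 0.000159). P4HA2, a collagen prolyl hydroxylase, fell from 40.3 ± 2.41 to 33.0 ± 0.948 CPM (log2 fold change -0.29, edgeR adjusted p = 0.00154). The DNA repair gene RAD50 (log2 fold change 0.036), the carnitine transporter gene SLC22A5 (0.015), PDLIM4 (0.19) and SLC22A4 (-0.22) did not pass. On the opposite strand, GENCODE places C5orf56 over 22% and the protein-coding AC116366.3 over 6.01% of the exon bases of IRF1. Neither was analysed here. The sources used here do not say whether counting used the strand, so reads in those stretches may belong to either gene.

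Beside IRF1, the study names others, ELF1, CEBPB and RELA among them, as candidate factors of the MSLN gene. CEBPB fell like IRF1, from 136 ± 4.73 to 89.6 ± 4.24 CPM (log2 fold change -0.60, edgeR adjusted p = 1.63e-07). ELF1 rose from 123 ± 8.06 to 139 ± 1.33 CPM (log2 fold change 0.18, edgeR adjusted p = 0.00897). RELA, the NF-kB subunit, did not pass (log2 fold change -0.095, edgeR adjusted p = 0.0705).

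The genes whose profile over the 6 samples lay closest to a called member were found by the root mean square difference of centred log2 levels among 10501 genes of at least 10 CPM. For IRF1 they were PDS5B (0.019), TJP3 (0.019) and UBASH3B (0.024), small beside the 0.27 of IRF1's own variation around its mean. For IRF5 they were DHRS13 (0.031), ZNF524 (0.032) and LRRC8B (0.037). For IRF9 they were TRIM45 (0.066), GSAP (0.070) and TENM1 (0.072), against 0.22 for IRF9 itself. All 6 samples enter each comparison of profiles, and the difference between the 2 groups is part of every profile.

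**Figure D4:**
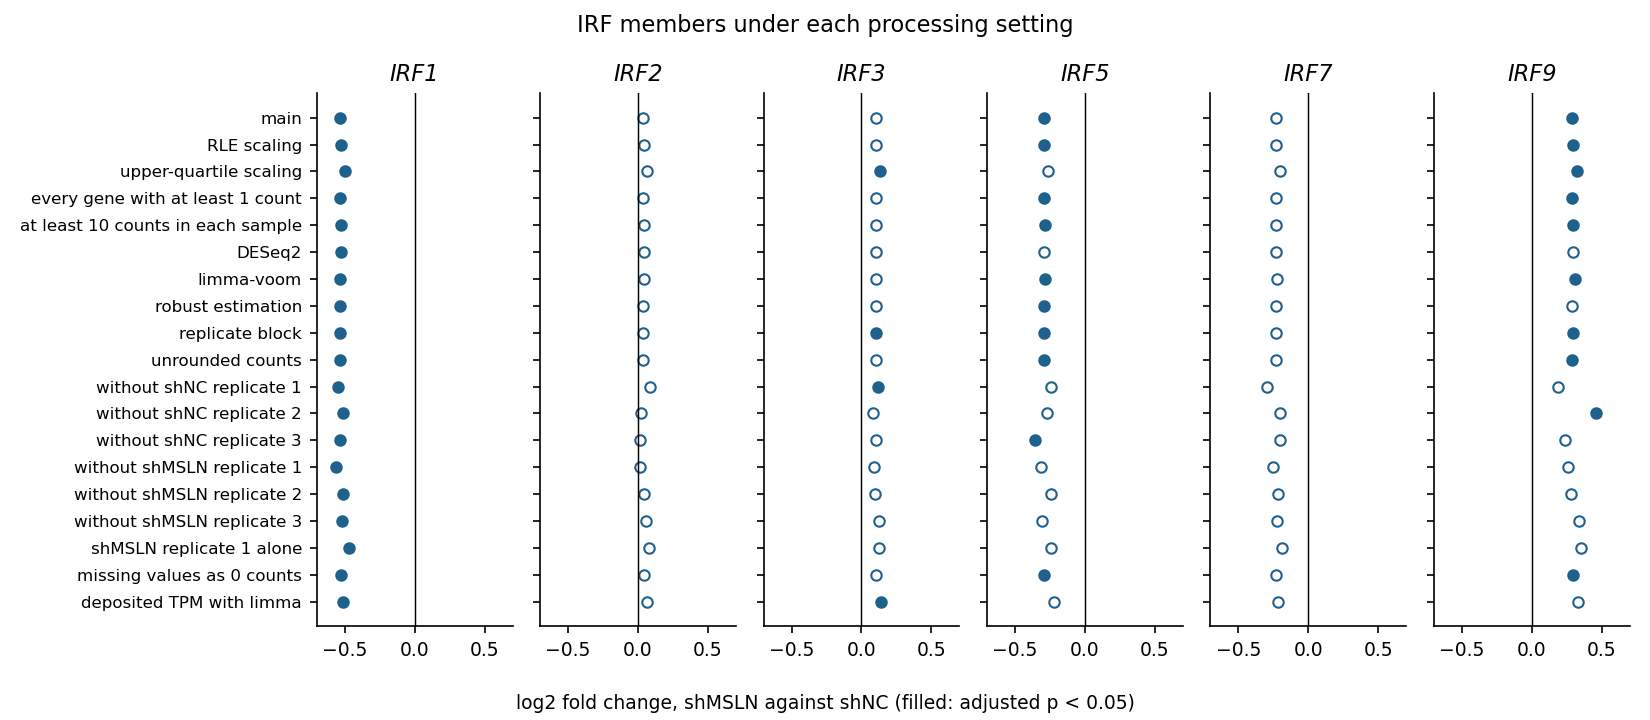
Log2 fold change of each member (horizontal axis) as reported (top row, main) and under 18 alternative settings (other rows), filled where the adjusted p was below 0.05. IRF1 is filled in every row, IRF2 and IRF7 in none, and IRF5 and IRF9 are each filled in 9 of the 18 alternatives.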

How the data were processed

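RNA from 3 shNC and 3 shMSLN samples of HCC1806/HM3 cells was enriched with oligo(dT) beads and sequenced by BGI. The authors deposited 1 table of estimated counts, FPKM and TPM per gene and sample. The submitters' processing notes name GRCh38.p13. The aligner, quantifier and annotation are not given in the sources used here. The deposited estimated counts are not scaled to depth. The deposited FPKM values were not used. The deposited TPM values, scaled by the authors for length and depth, served to compare levels between genes.

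Only the 16573 genes that had values for every sample entered, since the shMSLN columns hold missing marks, and counts were rounded. edgeR 4.0.16 in R 4.3.3 was run with TMM scaling, filterByExpr, glmQLFit and glmQLFTest without covariates, and Benjamini-Hochberg adjustment covered the 14552 genes tested. Exact tests used log2(CPM + 0.5). Scripts were tested on simulated data. The alternatives were other scalings and filters, DESeq2 1.42.0, limma-voom and limma on log2 TPM (limma 3.58.1), robust estimation, unrounded counts, a replicate block, leaving out each sample, shMSLN replicate 1 alone, and missing values as 0.

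The members, lists and alternatives were chosen with earlier results of these data known. Named genes were the members, MSLN, the corepressors, the other candidate MSLN factors, the most abundant gene of each list by TPM in shNC, up to 4 called genes of at least 1 CPM per direction and list with the largest change, and the 3 genes closest to each called member. A few genes named by the rule are left out here. Positions are from GENCODE release 29, and promoters from RefSeq.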

Additional observations from a re-analysis of the deposited data

How the results depend on the processing

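Across 18 alternatives, no member changed direction. IRF1 passed in all 18, IRF2 and IRF7 in 0, IRF3 in 4, and IRF5 and IRF9 in 9 each. IRF3 passed with upper-quartile scaling (log2 fold change 0.13), with the replicate block (0.10) and with TPM in limma (0.14). The median log2 fold change of all genes tested was itself 0.031 with upper-quartile scaling and 0.034 with TPM, against 0.0019 as reported. IRF5 no longer passed with upper-quartile scaling (-0.26), DESeq2 (-0.29), shMSLN replicate 1 alone (-0.24) or TPM (-0.22). IRF9 no longer passed with DESeq2 (0.29), robust estimation (0.29), shMSLN replicate 1 alone (0.35) or TPM (0.33). The cause was not tested. Leaving out single samples gave 0.083 to 0.12 for IRF3, which passed without shNC replicate 1 (adjusted p = 0.0259), -0.36 to -0.24 for IRF5 and 0.19 to 0.46 for IRF9. The count of members called went from 3 to 1 with DESeq2, with shMSLN replicate 1 alone and without any 1 shMSLN replicate, and was 1 to 2 over all samples left out. The restrainers called ranged from 2 to 7. With shMSLN replicate 1 alone, where the lone sample is assumed to vary like the shNC samples, 1797 genes were called in all, with 5 sensors and adaptors, 3 receptors and partners, 4 IRF1 targets, 10 ISGF3 targets and 1 restrainer. TPM in limma called 8 sensors and adaptors and 2 restrainers, and split all calls into 2638 higher and 1684 lower, against 2411 and 2621 as reported. The TPM and missing-as-0 settings were chosen after seeing the data.

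The replicate block called 5789 genes and 4 members. Deviations of same-numbered samples correlated at 0.20, 0.080 and 0.086, and each sample correlated best with its own number. This is a hint of pairing from the data, since the labels give only a shared number. Beside IRF3, which it added, the block changed no call of the other 5 members. IRF9 had a log2 fold change of 0.30 with the block (edgeR adjusted p = 0.0105). IRF5, IRF7 and IRF8 rest on the lowest counts among the tested IRF genes reported, at most 224 per sample.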
